A study of Mus musculus with 1049 samples.

Results

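Imprinted genes with known roles in fetal growth were followed from birth to old age in mouse dermis, in fibroblasts sequenced one by one. The 10 genes, H19, Igf2, Dlk1, Meg3, Peg3, Mest, Plagl1, Cdkn1c, Ndn and Grb10, were taken by name from the 51777 genes common to all plate count tables, and each matched 1 row. All 10 were among the 16684 genes that passed the filter on low counts. The mice were of the C57Bl/6 strain and were 1.5 or 2.5 days old (newborn), 2 months old (young) or 18 months old (old). No treatment and no altered allele is named for any group. The skin was cleared of subdermis and of patches in the growth phase of the hair cycle, and viable cells were sorted with antibodies against immune, mast, epithelial and endothelial cells and against CD34 and Pdgfra, without selecting on CD24. The labels divide the wells into experiments 1 and 2 and name no mice, so p-values measure only the spread between these experiments. They do not say which newborn age went into which experiment.

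An imprinted gene is expressed mainly from the copy inherited from 1 parent, marked by DNA methylation laid down in the germ line. Many genes of this class act on fetal and early postnatal growth, and in mice a set of them is known to decline in several organs as body growth slows after birth. Genes expressed from the paternal copy, such as Igf2, Dlk1, Peg3, Mest and Plagl1, mostly favour growth, while Cdkn1c and Grb10, expressed from the maternal copy in most tissues, restrain it. The reads carry no parental mark here, because the mice are of a single strain, so imprinting itself was not measured.

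Several of the genes lie side by side. H19 (ENSMUSG00000000031) is a non-coding RNA gene on chromosome 7, 142575529 to 142578143, minus strand, and Igf2 (ENSMUSG00000048583) lies 72622 bases away at 142650766 to 142666816 on the same strand. They share an imprinting control region and enhancers. Cdkn1c (ENSMUSG00000037664; 143458339 to 143461050, minus strand) is 791522 bases beyond Igf2. On chromosome 12, Dlk1 (ENSMUSG00000040856; 109452823 to 109463336, plus strand) and the non-coding RNA gene Meg3 (ENSMUSG00000021268; 109541001 to 109571726, plus strand) are 77664 bases apart. Peg3 (ENSMUSG00000002265) lies on chromosome 7 at 6703892 to 6730431, minus strand, and Ndn (ENSMUSG00000033585) at 62346569 to 62350262, plus strand. Mest (ENSMUSG00000051855) is on chromosome 6 at 30723547 to 30748465, plus strand, Plagl1 (ENSMUSG00000019817) on chromosome 10 at 13060504 to 13131694, plus strand, and Grb10 (ENSMUSG00000020176) on chromosome 11 at 11930508 to 12038683, minus strand (GRCm38, GENCODE M21, 1-based). Counts cover whole genes, so no value belongs to a single exon.

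The windows upstream of Dlk1 and Meg3 are shown because these neighbours had unlike patterns over the ages. Each window is the 250 bases before a start given by RefSeq (GRCm38.p6), 5′ to 3′, at chr12:109452573-109452822 for Dlk1 and chr12:109540746-109540995 for Meg3, both on the plus strand. Capitals mark letters of TATAAA (the TATA box), GGGCGG (the GC box) or AANATGGC (a core of the factor YY1), searched on both strands.
Dlk1: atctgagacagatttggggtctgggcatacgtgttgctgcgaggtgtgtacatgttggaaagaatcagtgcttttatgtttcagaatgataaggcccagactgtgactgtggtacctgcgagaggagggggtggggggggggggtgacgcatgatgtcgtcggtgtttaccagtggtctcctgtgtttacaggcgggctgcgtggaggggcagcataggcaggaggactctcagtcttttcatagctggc
Meg3: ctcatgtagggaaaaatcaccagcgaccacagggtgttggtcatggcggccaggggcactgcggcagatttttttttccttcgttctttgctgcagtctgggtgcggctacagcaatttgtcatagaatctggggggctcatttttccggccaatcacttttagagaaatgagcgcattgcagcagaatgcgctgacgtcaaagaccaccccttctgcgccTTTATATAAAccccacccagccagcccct
The Meg3 window held 2 overlapping TATAAA matches, 1 on each strand, at 29 and 25 bases before the start. TATAAA was found in 12.4% of 32851 such windows of the mouse genome. This RefSeq start lies 5 bases before the GENCODE start of Meg3. A further Meg3 window inside the gene, at chr12:109545148-109545397, held none of the 3 motifs and 0 CG dinucleotides, and the Dlk1 window held none of the motifs. RefSeq windows were given for 8 of the 10 genes, 15 windows in all; TATAAA occurred in 1 of them, GGGCGG in 7 (32.7% of all windows) and AANATGGC in 0 (3.91% of all windows). The printed windows of Dlk1 and Meg3 had 8 and 10 CG dinucleotides, against a median of 6 over all windows. A match describes letters and not a bound site.

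H19, Igf2, Meg3 and Mest also carry microRNAs. In RefSeq, 9 mature microRNAs lie inside these 4 genes on the same strand, with 9 different seeds (bases 2 to 8, in capitals). The arms of miR-675, for which H19 is the precursor (chr7:142577112-142577133 and chr7:142577078-142577099, minus strand), and an arm each from Igf2 (chr7:142654932-142654952, minus strand) and Mest (chr6:30741314-30741336, plus strand) are shown, because these hosts were far lower in young than in newborn sums. The libraries measured polyadenylated RNA and not mature microRNAs.
miR-675-5p: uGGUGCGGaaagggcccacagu
miR-675-3p: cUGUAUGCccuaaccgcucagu
miR-483-3p: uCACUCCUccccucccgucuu
miR-335-5p: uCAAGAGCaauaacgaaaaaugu

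The files held raw read counts per gene and cell from Smart-seq2, which copies polyadenylated RNA along its length, marks no strand and adds no molecular identifiers. After filtering, 249 newborn, 246 young and 240 old cells on 9 plates remained, with all ages on every plate. Within an age and experiment the reads of all kept cells were added, so that each age has 2 sums, and the 6 sums held 119682449 to 195324769 reads. Levels are in CPM, the counts of a sum scaled to a common library total. A share is the percentage of cells with at least 1 read after each cell was thinned to 100000 reads. Thinned newborn cells had a median of 1802 and 2197 genes with a read in experiments 1 and 2, young cells 1654 and 2030, and old cells 1505 and 1709. Newborn cells were thus highest within each experiment, and the part of this in the shares below was not tested. The 6 fibroblast markers summed to 43970 to 53610 CPM in newborn and 135700 to 168100 CPM in adult sums. This adult excess was mainly Dcn, with newborn sums at 17370 and 13910 CPM against 104200 to 116200 CPM later. Lum and Cd34 were also higher in all adult sums. Col1a1 and Col1a2 were highest in young sums and lowest in old ones. For Col1a1 the old sums held 2698 and 1539 CPM, below the newborn 10880 and 8256 CPM. Pdgfra overlapped between newborn and adult sums.

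Markers of other cell types were low. The 6 skeletal muscle genes summed to 0.484 to 0.548 CPM in newborn and 0 to 2.13 in adult sums, with Pax7, Myod1, Myf5 and Myog at 0 reads in all ages. The 4 adipocyte genes stood at 0.351 to 2.55 CPM in newborn and at most 0.0393 in adult sums, with Adipoq, Cidec and Lep at 0. The 4 pericyte and smooth muscle genes were at 14.7 and 97.6 CPM in newborn and 4.62 to 15.9 in adult sums, in newborn nearly all Acta2, with Rgs5 at 0. The 5 keratinocyte and 4 endothelial genes summed to less in newborn (18.9 to 33.7 and 5.65 to 23.5 CPM) than in adult sums (43.6 to 70.9 and 44.5 to 82.0 CPM), carried mainly by Krt10 and Plvap. Within these lists Krt5 (5.11 and 1.07 CPM), Krt1 (0.349 and 1.80 CPM) and Epcam (0.329 and 0 CPM) had reads in newborn sums and 0 in all adult sums, and Pecam1 was at 11.4 and 0 CPM in newborn and at most 1.60 CPM in adult sums. The 4 immune genes summed to 0 to 1.48 CPM in newborn and 10.5 to 160 CPM in adult sums, with Ptprc and Tyrobp at 0, and the 3 mast cell genes to 0.0387 and 0 CPM in newborn and 0 in adult sums. The melanocyte gene Dct was at 4.47 and 7.36 CPM in newborn sums, in 0.633 and 2.20% of cells, and at 0 in all adult sums, while Pmel was at most 0.217 CPM in any sum and Sox10 was at 0. The 6 cell cycle genes summed to 688 and 405 CPM in newborn and 12.1 to 28.5 CPM in adult sums. How far these differences bear on the imprinted genes was not tested.

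A single young cell of experiment 2 stood apart and weighs on every young value of H19, Igf2, Dlk1 and Mest. It held reads of 9 of the 10 genes, all but Plagl1, whereas no other adult cell held more than 4. Of all young reads it carried 99.9% for H19 (6062 reads), 100% for Dlk1 (386 reads), 72.9% for Igf2 and 52.3% for Mest. It had 0 reads of Ccl11, Apoe and H2-D1, and it had reads of 33 of the 120 genes called higher in young than in newborn sums. The other 245 young cells had reads of 25 to 87 of those genes (median 66) and newborn cells of 4 to 51 (median 18). Its well is labelled young and stayed in the sums. Some of the sums, shares and fold changes that it moves are also given without it below, an alternative chosen after the data were seen. Leaving it out moved the log2 fold change for young against newborn from -3.96 to -13.56 for H19 and from -3.43 to -4.49 for Mest. That of Peg3 moved from -3.05 to -3.20 and that of Cdkn1c from -2.05 to -2.33. Young shares of Peg3 and Cdkn1c in experiment 2 were 19.4 and 10.7% without the cell. The cell was picked, among adult cells only, by its reads of these same genes, so p-values without it are a description and not a test.

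Newborn sums lay above all 4 adult sums for 8 of the 10 genes, both in CPM and in share of cells. Of all tested genes, 15.8% had that order by CPM and 27.4% by share. Meg3 and Ndn were the exceptions. By edgeR's quasi-likelihood test on the sums with Benjamini-Hochberg adjustment over all genes, 0 of the 10 passed in any comparison of ages. The background of genes called lower by this test was 0.0599% for young against newborn, 0.138% for old against newborn and 0% for old against young. At an unadjusted p under 0.05, edgeR placed 4, 8 and 6 of the 10 genes lower in these comparisons, and 6.15%, 7.93% and 3.03% of all genes. Each pair of these comparisons shares the sums of 1 age. Without the single young cell H19 left the 6 for old against young (edgeR unadjusted p 0.228 in place of 0.0324). H19 and Dlk1 then joined those for young against newborn, and Igf2 those for old against newborn. The genes' median log2 fold changes were -3.24, -4.83 and -3.44, beside -0.07, -0.08 and 0 over all tested genes. Without the single young cell the medians of the 10 genes were -3.52, -4.83 and -1.46. H19 and Dlk1 had few adult reads outside the single young cell and passed the filter mainly through newborn ones. Mest and Plagl1 had 4725 and 11186 young reads and 0 and 8 old ones. The medians and the counts of the 10 genes called, here and by the other tests below, are therefore a description.

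Other tests called more of the genes. With limma on the mean log2(CPM + 1) per cell of each sum and Benjamini-Hochberg adjustment, 7 genes were lower in young than in newborn sums (4.47% of all genes) and 9 in old than in newborn sums (6.83%). Between old and young it called 0 of the 10 and 0.024% of all genes lower. DESeq2 called 4, 8 and 5 of the 10 lower, against 6.07%, 8.34% and 3.89% of all genes. Its 5 for old against young were H19, Dlk1, Meg3, Mest and Plagl1. The single young cell carried 99.9% of the young H19 reads, 100% of those of Dlk1 and 52.3% of those of Mest. DESeq2 was not run without that cell. Ndn passed none of these tests, and none of the 10 was called higher in adults by edgeR, limma or DESeq2.

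**Figure D1:**
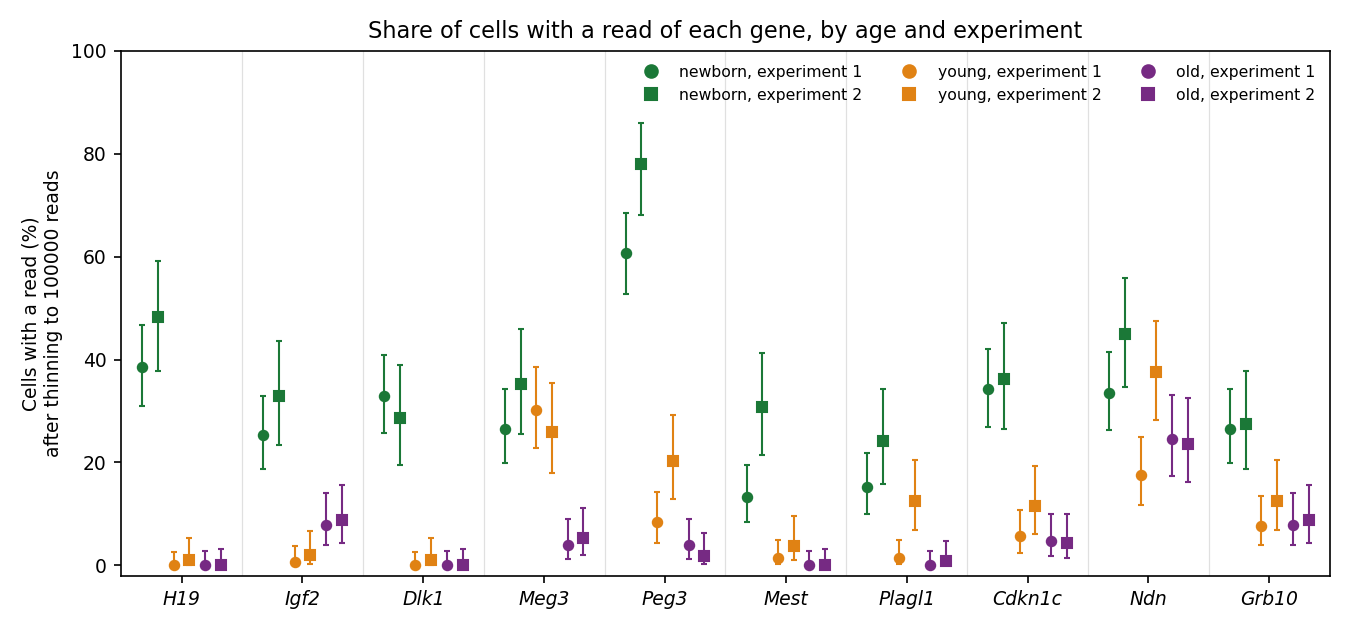
Share of cells with a read after thinning to 100000 reads (y axis, %) for each gene (x axis), with exact binomial 95% intervals; colours are ages and symbols experiments. Green newborn points lie above all adult points for every gene but Meg3 and Ndn; H19 stands at 38.6 and 48.4% in newborn cells.

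Igf2 encodes insulin-like growth factor 2, the main fetal growth factor of this family. In experiments 1 and 2 its level was 32.8 and 124 CPM in newborns, 1.48 and 9.30 at 2 months and 22.4 and 14.5 at 18 months. Newborn sums were highest, and the old sums lay above both young ones without overlap. The mean over newborn sums was 14.6 times that over young and 4.27 times that over old sums, with log2 fold changes of -3.87 ± 1.19 (young against newborn; SE) and -2.09 ± 1.10 (old against newborn) that did not pass in edgeR (adjusted p 0.262 and 0.472). Without the single young cell the young sum of experiment 2 was 1.29 CPM, the newborn to young ratio 56.6 and the log2 fold change -5.82 ± 0.88 (edgeR adjusted p 0.0853). Shares had the same order: newborn cells with a read made up 25.3 and 33.0%, young cells 0.704 and 1.92% (0.971% in experiment 2 without the single cell), old cells 7.94 and 8.77%.

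By plate, the old share of Igf2 exceeded the young share on 7 of 9 plates, and both were 0% on the other 2. The median plate had Igf2 in 25% of newborn, 0% of young and 8% of old cells. The old mean was 3.42 times the young mean, with a log2 fold change of 1.77 ± 1.09 for old against young (edgeR adjusted p 0.915). Without the single young cell the old mean was 13.3 times the young mean, with a log2 fold change of 3.73 ± 0.80 (edgeR adjusted p 0.9105). A single old cell of experiment 1 held 44.2% of the Igf2 reads of its sum. Gm49394, a protein-coding gene of GENCODE M21, shares 3596 exonic bases with Igf2 on the same strand and is not among the rows common to the tables, so reads of the shared bases cannot be told apart.

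H19 is the maternally expressed non-coding neighbour of Igf2. Newborn sums held 148 and 559 CPM, young sums 0.0131 and 45.4, and old sums 0 and 0.0111. The young sum of experiment 2 was the only adult one above 1 CPM, and without the single cell it had 0.0452 CPM. Reads were found in 38.6 and 48.4% of newborn cells, 0 and 0.962% of young cells and 0% of old cells, where 0 of 240 cells allows a share of up to 1.25% (3 cells, counting error only). With 2 reads in the old sums, the newborn to old ratio was 51660, with a counting interval of 14300 to 426500 for the old reads. Without the young cell, H19 passed edgeR's test for young against newborn (adjusted p 0.0358) and for old against newborn (adjusted p 0.0275), where it had 0.611 and 0.216 with that cell. H19 was the only one of the 10 genes to pass edgeR's test on leaving the cell out. Its SE for young against newborn was 2.62 with the cell and 1.37 without it. Since the cell was picked by its reads of these genes, the p-values without it are no support for a difference.

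Dlk1 encodes a membrane protein of the Delta family that restrains adipocyte formation. Newborn sums held 20.4 and 35.1 CPM, young sums 0 and 2.89, and both old sums 0. All 386 young reads came from the single cell named above. The share was 32.9 and 28.6% of newborn cells, and the newborn level was at least 2876-fold higher than the old one, on a floor of 3 reads over both old sums. An antibody against Dlk1 was part of a panel that the labels describe for newborn fibroblast subpopulations. They do not say whether wells used here were gated with it, so the part of such a gate in the newborn share was not tested.

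Meg3, the maternally expressed non-coding neighbour of Dlk1, followed another course. It stood at 31.4 and 82.4 CPM in newborns, 99.6 and 36.3 at 2 months and 2.06 and 2.14 at 18 months. Newborn and young sums overlapped, and both old sums lay far below. The log2 fold change was 0.26 ± 0.70 for young against newborn (edgeR adjusted p 0.958), -4.76 ± 0.82 for old against newborn (0.1003) and -5.02 ± 0.83 for old against young (0.906). Reads of Meg3 occurred in 26.6 and 35.2% of newborn cells, 30.3 and 26.0% of those at 2 months and 3.97 and 5.26% of those at 18 months. Its young mean was 32.3 times its old mean. The sign of young against newborn turned without newborn replicate 1 or young replicate 1 and with limma (-0.28, -0.65 and -0.23 on the log2 scale).

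The low old share of Meg3 was seen plate by plate. The young share exceeded the old share on 9 of 9 plates, while newborn exceeded both adult ages on 5 of 9. limma's old against newborn comparison passed (adjusted p 0.0117) and old against young did not (adjusted p 0.483). DESeq2 called both lower in old sums. A single young cell of experiment 1 held 42.7% of that sum's Meg3 reads. Rian, a further maternally expressed RNA gene of the cluster, held 45.1 and 79.5 CPM in newborns, 42.9 and 38.9 at 2 months and 4.47 and 6.71 at 18 months, with old sums below all others as for Meg3. Rtl1, the paternally expressed gene between them, was at 23.7 and 34.1 CPM in newborn sums, 0 and 13.9 in young and 0 in old sums, in the order of Dlk1 and not of Meg3. Mirg, a further gene of the cluster, was at 0.339 and 1.42 CPM in newborn, 23.6 and 0 in young and 0 in both old sums. None of Rian, Rtl1, Mirg, Dlk1 and Meg3 passed edgeR's test.

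**Figure D2:**
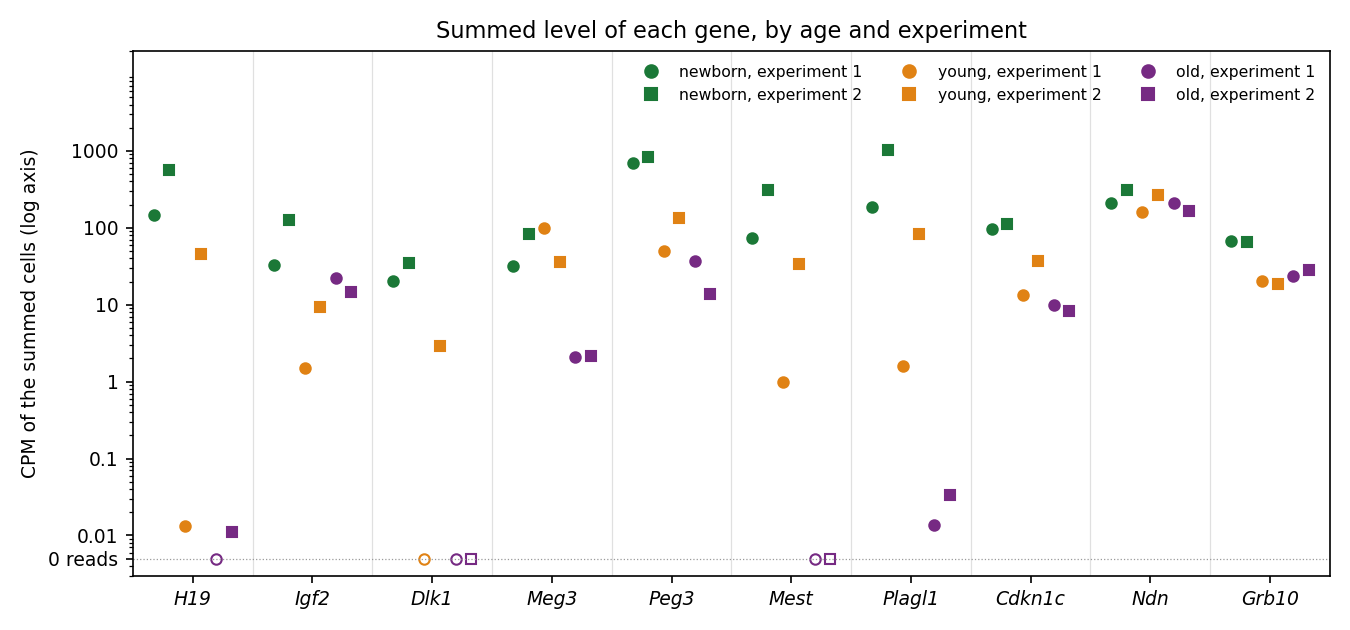
Level of each gene (x axis) in the 6 sums in CPM (y axis, log scale); colours are ages, symbols experiments, and open symbols on the dotted line mark sums with 0 reads. Dlk1 and Mest have 0 reads in both old sums, while Ndn lies between 160 and 309.5 CPM in all 6.

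Peg3, a paternally expressed zinc finger gene, was the most widely read of the genes in newborn dermis. Its level was 693 and 843 CPM in newborns, 50.5 and 135 at 2 months and 37.2 and 13.96 at 18 months. Reads occurred in 60.8 and 78.0% of newborn cells, 8.45 and 20.2% of young ones and 3.97 and 1.75% of old ones. No newborn value overlapped an adult one, and the old sums lay below the young ones. Without the single young cell the young sum of experiment 2 was 116 CPM. The newborn mean was 8.27 times the young and 30.03 times the old mean, with log2 fold changes of -3.05 ± 0.70 (edgeR adjusted p 0.192) and -4.91 ± 0.77 (0.0837). With cells thinned before summing, the latter passed edgeR's test at an adjusted p of 0.0162. Of the cluster's other genes, Zim1 and Usp29 were at 41.7 and 47.3 CPM and at 12.5 and 5.81 CPM in newborn sums, and both were at 0 CPM in both old sums.

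Mest encodes an enzyme of the hydrolase fold linked to fat cell size, and Plagl1 a zinc finger transcription factor. Mest held 74.2 and 305.5 CPM in newborns, 0.984 and 34.3 at 2 months and 0 in both sums at 18 months. Plagl1 held 185 and 1021 CPM in newborns, 1.61 and 81.9 at 2 months and 0.0136 and 0.0334 at 18 months. For both genes the newborn and young sums were higher in experiment 2, and newborn sums lay above all adult ones. In edgeR their adjusted p was 0.550 and 0.478 for young and 0.173 and 0.137 for old against newborn. These levels rested on few cells: Mest was read in 13.3 and 30.8% and Plagl1 in 15.2 and 24.2% of newborn cells, and in newborn experiment 2 a single cell held 30.4% of the Mest reads and a single cell 33.8% of the Plagl1 reads. Among young cells Plagl1 was read in 1.41% in experiment 1 and 12.5% in experiment 2.

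The old level of Mest was at or under the floor, and newborn sums were at least 18390-fold higher on that floor. Plagl1 had 8 reads in old cells. Without the single young cell, the young Mest sum of experiment 2 was 15.85 CPM and the newborn to young ratio 22.55 in place of 10.8. Mest shares 912 exonic bases with Copg2 on the opposite strand. Copg2 held 11.1 and 48.4 CPM in newborns, 4.92 and 12.1 at 2 months and 0 at 18 months, and reads of the shared bases cannot be told apart without strand.

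Ndn encodes necdin, a protein of the MAGE family best known from neurons. Newborn sums held 209 and 309.5 CPM, young sums 160.0 and 269, and old sums 209.6 and 168. The ages overlapped on these levels, which carry the TMM factors. Its log2 fold changes were -0.27 ± 0.36 for young and -0.46 ± 0.37 for old against newborn (edgeR adjusted p 0.867 and 0.659). Reads occurred in 33.5 and 45.05% of newborn cells, 17.6 and 37.5% of young ones and 24.6 and 23.7% of old ones, with newborn above both adult ages on 8 of 9 plates. Magel2, Mkrn3 and Peg12 lie in the same cluster. Of these only Peg12 passed the filter, with 22.7 and 3.85 CPM in newborns, 0.0656 and 0 at 2 months and 0.176 and 2.89 at 18 months.

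Cdkn1c encodes p57, an inhibitor of cyclin-dependent kinases that halts division. Newborn sums held 96.6 and 113.5 CPM, young sums 13.4 and 37.2, and old sums 9.78 and 8.17. Cells with a read made up 34.2 and 36.3% at birth, 5.63 and 11.5% at 2 months and 4.76 and 4.39% at 18 months. The groups did not overlap between newborn and adult, and without the single young cell the young sum of experiment 2 was 28.4 CPM. Its log2 fold changes were -2.05 ± 0.58 for young and -3.55 ± 0.61 for old against newborn (edgeR adjusted p 0.2500 and 0.102). Phlda2, another maternally expressed growth restrainer of the cluster, was at 8.41 and 5.74 CPM in newborn sums and at most 0.0300 CPM in any adult sum. Cdkn1c shares 625 exonic bases with the antisense gene Gm44732, and reads there cannot be told apart. Kcnq1ot1, the non-coding RNA of that cluster, overlapped between ages, from 28.7 to 141.5 CPM in newborn and 17.0 to 61.3 CPM in adult sums.

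Grb10 encodes an adaptor that binds the insulin and IGF1 receptors and damps their signal. It held 67.6 and 65.3 CPM in newborns, 20.3 and 18.3 at 2 months and 23.6 and 28.6 at 18 months. The sums of each age lay close together and newborn ones were highest, with log2 fold changes of -1.78 ± 0.37 for young and -1.35 ± 0.37 for old (edgeR adjusted p 0.153 and 0.209). Reads were found in 26.6 and 27.5% of newborn cells, 7.75 and 12.5% of young ones and 7.94 and 8.77% of old ones. The restraining genes Cdkn1c and Grb10 thus had the same order of newborn above adult sums as the growth-favouring Igf2, Dlk1, Peg3, Mest and Plagl1.

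**Figure D3:**
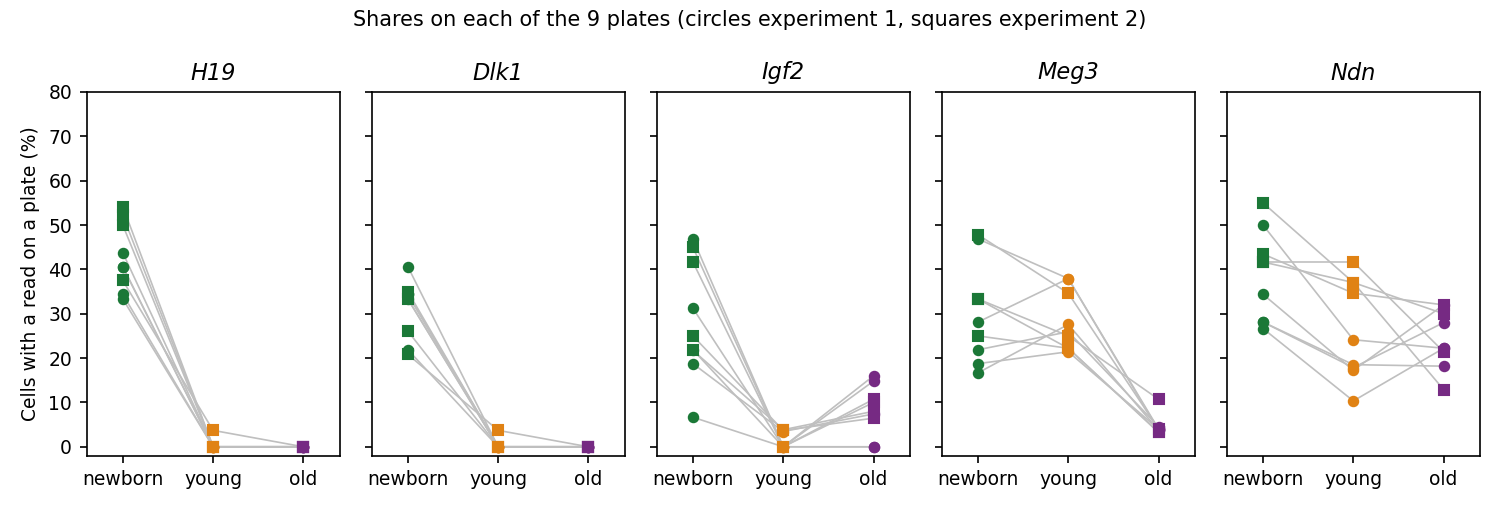
Share of thinned cells with a read on each of 9 plates (y axis, %) at each age (x axis) for 5 genes, with a line per plate, circles for experiment 1 and squares for experiment 2. H19 and Dlk1 stand above both adult ages on every plate, Igf2 is at most 3.85% in young cells, and Meg3 is at most 10.7% in old cells.

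Plates, which each held all ages, gave the shares a comparison within a batch. The newborn share exceeded both adult shares on 9 of 9 plates for H19, Dlk1, Peg3 and Cdkn1c and on 8 of 9 for Igf2, Mest, Plagl1, Ndn and Grb10. For these and the plate counts given above, the share over all tested genes was not worked out, so they only describe these genes. Newborn cells also yielded the most genes after thinning within each experiment, and the part of this in the plate counts was not tested. Each plate held 20 to 32 newborn, 24 to 29 young and 22 to 31 old kept cells. The newborn share per plate ran from 33.3 to 54.2% for H19, 20.8 to 40.6% for Dlk1, 53.1 to 91.7% for Peg3 and 6.67 to 46.9% for Igf2. Without thinning the newborn shares of H19 were 41.1 and 49.45%, those of Dlk1 35.4 and 34.1%, those of Igf2 25.95 and 38.5%, and those of Meg3 32.3 and 43.96%.

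Cells that did hold a read carried similar levels at all ages for several genes. Over the cells with a read, the median of Cdkn1c was 228 CPM in 91 newborn, 210 CPM in 21 young and 197 CPM in 12 old cells. Igf2 had medians of 122, 132 and 136 CPM in 76, 5 (among them the cell set apart above) and 20 cells, and Ndn of 683, 568 and 719 CPM in 96, 66 and 62 cells. For these genes the ages differed more in the share of cells than in the level per cell with a read, although a lower level per cell also lowers the chance of a read. Meg3 was different, at 53.3 and 78.0 CPM in 91 newborn and 82 young cells and 17.6 CPM in 16 old cells, and Plagl1 reached 1268 CPM in 49 newborn, 252 CPM in 20 young and 1.41 CPM in 4 old cells. Cells with only 1 or 2 reads, such as the old cells with H19 or Plagl1, may hold stray reads, which was not tested.

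Per kilobase of exon, H19 had the highest mean newborn level of the 10, at 144 CPM per kb with sums of 60.2 and 227. Plagl1, Ndn, Peg3, Cdkn1c and Mest followed at means of 77.1, 70.2, 57.7, 51.5 and 48.1 CPM per kb, then Igf2 (13.7), Grb10 (7.31), Dlk1 (4.90) and Meg3 (3.15). Neighbours in this order overlapped in the range of their sums, except Grb10 (7.19 and 7.43) and Dlk1 (3.60 and 6.20). In old sums Ndn stood at 51.1 CPM per kb and the next gene, Cdkn1c, at 4.40. The length counts exons of all GENCODE transcripts together and is long for Meg3 (18089 bases), which lowers its value.

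Newborn fibroblasts mostly held several of the genes at once. A thinned newborn cell had reads of 3.07 and 3.87 of the 10 on average, a young cell of 0.732 and 1.28, and an old cell of 0.532 and 0.535. At least 4 were read in 60 of 158 newborn cells (38.0%) and 47 of 91 (51.6%) in experiments 1 and 2, in 0 and 5 young cells and in 0 old cells. None of the 10 was read in 6 and 2 newborn cells, and in 54.8 and 53.5% of old cells. If the genes were read independently with their own shares, 57.7 and 53.6 newborn cells would hold at least 4, beside the 60 and 47 seen. Cells with 7 or more numbered 5 and 11, and that product gives 1.47 and 3.47.

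**Figure D4:**
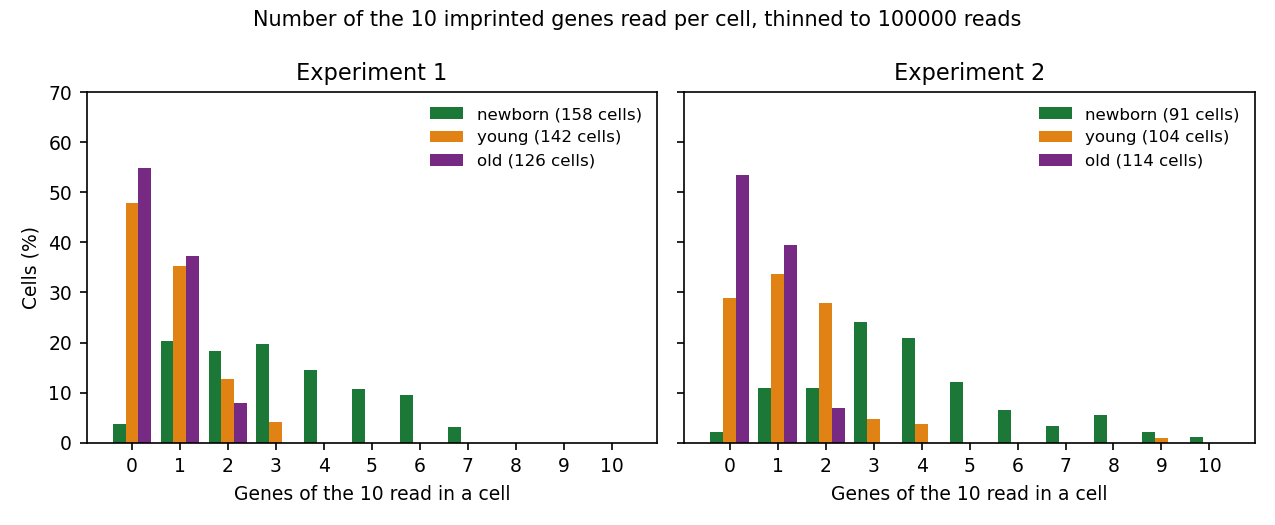
Percentage of cells (y axis) by how many of the 10 genes had a read (x axis) in experiment 1 (left) and 2 (right), after thinning; colours are ages. Old cells stop at 2 genes, while newborn cells reach 7 in experiment 1 and 10 in experiment 2; the young bar at 9 genes is the single cell set apart in the text.

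How many genes a cell yielded moved with the count of imprinted genes in experiment 1. Newborn cells with at least 4 of the 10 had a median of 1948 genes with a read in experiment 1 and 2275 in experiment 2, and those with at most 1 had 1652 and 2302. The correlation over newborn cells between the mean log2 level of the 10 genes and genes per thinned cell was 0.243 in experiment 1 (n = 158) and 0.041 in experiment 2 (n = 91). Cells with reads of at least 3 of the 6 cell cycle genes, 20 and 9 in number, held 3.30 and 2.78 of the 10 genes on average, and the other newborn cells held 3.04 and 3.99. Single genes differed: Igf2 was read in 30% of the 20 cells and 24.6% of the others in experiment 1, and in 0% of the 9 cells and 36.6% of the others in experiment 2. Mest was read in 0 and 11.1% of the cells with cell cycle genes and in 15.2 and 32.9% of the others.

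Within newborn dermis, the pairs of H19, Igf2 and Dlk1 had the highest phi in both experiments after thinning. Phi, a correlation of presence and absence over cells, was 0.358 and 0.410 for H19 with Dlk1, 0.274 and 0.436 for Igf2 with Dlk1 and 0.226 and 0.351 for H19 with Igf2 in experiments 1 and 2. Of the 45 pairs only these 3 exceeded 0.2 in both experiments, thinned or not, although unthinned Dlk1 with Peg3 (0.234) and H19 with Peg3 (0.214) exceeded H19 with Igf2 (0.209) in experiment 1. Counting only cells with at least 10 reads, Igf2 with Dlk1 stood at 0.199 in experiment 1, and 2 pairs exceeded 0.2 in both. After thinning the median pair stood at 0.072 and 0.0900. H19 and Dlk1, which lie on different chromosomes, were both read in 33 of 158 and 21 of 91 newborn cells, where the product of their shares gives 20.1 and 12.6. Dlk1 was read in 54.1 and 47.7% of cells with H19 and in 19.6 and 10.6% of cells without it. These are descriptions over cells of the same libraries, and the mice are not known.

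Among neighbours on a chromosome the sharing varied. H19 and Igf2 had 23 and 22 shared cells, where products give 15.4 and 14.5. Dlk1 and Meg3 had 13 shared cells in experiment 1, where the product gives 13.8 (phi -0.025), and 12 in experiment 2, where it gives 9.14 (phi 0.146). Pairs with Meg3 ran from -0.095 to 0.146. Igf2 and Cdkn1c had phi of 0.133 and -0.043. Peg3 paired with Cdkn1c at 0.142 and 0.345, and 29 of the 45 pairs were above 0 in both experiments.

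**Figure D5:**
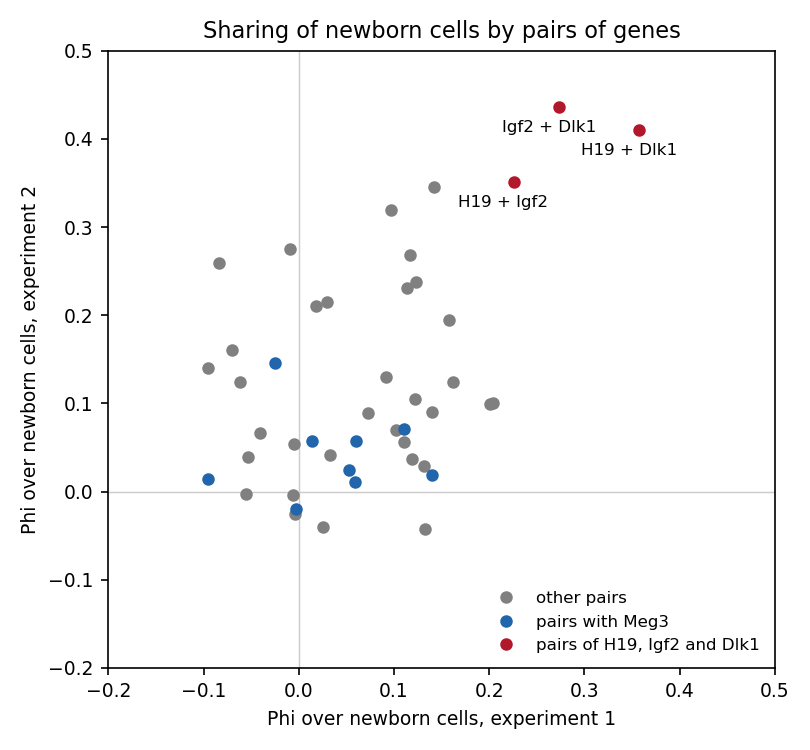
Phi coefficient of each of the 45 pairs of genes over newborn cells, experiment 1 (x axis) against experiment 2 (y axis); red marks the pairs of H19, Igf2 and Dlk1, blue the pairs with Meg3 and grey the others. The red pairs are the only ones above 0.2 in both experiments.

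All 3 of H19, Igf2 and Dlk1 were read in 16 and 15 newborn cells, against 5.08 and 4.14 by the product of shares, and none of them in 67 and 36 cells, against 48.6 and 22.5. The triple cells lay on 5 of 5 and 4 of 4 plates, that is, on every plate. They had a median of 2110 and 2224 genes with a read after thinning, and cells with none of the 3 had 1670 and 2302. Peg3 was read in 81.25 and 93.3% of the triple cells and in 49.25 and 69.4% of those with none, and Cdkn1c in 43.8 and 53.3% against 26.9 and 27.8%. Meg3 was read in 25% and 46.7% against 25.4 and 30.6%. In the adult sums 1 cell, the young cell set apart above, held all 3.

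Genes outside the 10 were ranked by likeness to them over newborn cells. Of 4482 genes read in at least 10% of newborn cells of both experiments, the 10 with the highest correlation to the mean log2 level of the members were Mgst1, Thbs2, Rarres2, C1qtnf3, Col1a1, Col1a2, Nfib, Serping1, Dpt and Apod, ranked by the lower of the values in the experiments (n = 158 and 91 cells). Mgst1, a microsomal glutathione transferase, had r of 0.481 and 0.481, Thbs2, the matrix protein thrombospondin 2, 0.454 and 0.568, and Apod, a lipid carrier, 0.349 and 0.430 (all genes considered, median 0.026 and -0.009). In 5 of these 10, Mgst1, Rarres2, Serping1, Dpt and Apod, all 4 adult sums lay above both newborn sums, an order that 13.3% of all tested genes had. The share with that order among the 4482 genes ranked was not worked out. Mgst1 was at 128 and 121 CPM in newborn and 1330 to 1918 CPM in adult sums, and Rarres2, which encodes the chemoattractant chemerin, at 267.5 and 171 against 3334 to 4520 CPM.

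Igf2 and Dlk1 were also ranked alone. The 5 genes most like Igf2 were Rarres2, Mgst1, Gpc3, Abi3bp and Vcan, with r from 0.225 to 0.399. Rarres2, Mgst1 and Abi3bp of these 5 had all adult sums above both newborn sums, Abi3bp with 40.7 and 67.35 CPM in newborn and 238 to 307.5 CPM in adult sums. Gpc3, a membrane proteoglycan known to restrain growth, was at 1996 and 2452 CPM in newborn and 62.1 to 486 CPM in adult sums. Those most like Dlk1 were C1qtnf3, Gstm2, Thbs2, Serpinf1 and Nfib, with r from 0.382 to 0.552, and in 2 of these 5, Gstm2 and Serpinf1, all adult sums lay above both newborn sums. That order was found in 13.3% of all tested genes, and its share among the genes ranked was not worked out.

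Other imprinted genes, from a list of 40, were read beside the 10. Of those listed, 38 had reads, 30 were tested and 0 passed edgeR's test in any comparison. Both newborn sums lay above all adult sums in 10 (15.8% of all genes) and below them in 2 (13.3% of all genes). The 10 were Phlda2, Nnat, Gnas, Gatm, Rian, Rtl1, Zim1, Usp29, Peg12 and Ppp1r9a. The 2 were Sgce (204 and 119 CPM in newborn, 241 to 353 in adult sums) and Impact (47.7 and 23.3 CPM in newborn, 108 to 144 in adult sums). The median log2 fold change of the 30 was -0.74 for young, -1.81 for old against newborn and -0.01 for old against young. Gatm, an enzyme of creatine synthesis named after its values were seen, was at 20.0 and 37.4 CPM in newborn sums and 0 in all adult sums. The difference between the lists was not tested.

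In the IGF pathway, 22 genes listed, 1 of 20 tested genes passed edgeR's test, and it was higher in adults. Igfbp5, which binds IGFs outside cells, rose from 84.3 and 57.3 CPM in newborns to 1050 and 1021 at 2 months and 1037 and 1497 at 18 months (edgeR adjusted p 0.0236 and 0.0184). Igf2r, the imprinted receptor that clears IGF2, overlapped between ages, with 37.4 and 6.85 CPM in newborns, 25.7 and 33.7 at 2 months and 29.3 and 12.7 at 18 months. The list's median log2 fold changes were 0.46, 0.12 and -0.39. Newborn sums lay above all adult sums in 2 of the 20 genes, Igf2bp3 and Pappa2 (15.8% of all genes). They lay below them in 5, Igfbp5, Igfbp6, Igfbp7, Irs2 and Grb14 (13.3% of all genes). Of 10 genes that maintain imprints, 0 passed and 4 had newborn sums above all adult ones, namely Zfp57, Dnmt1, Dnmt3a and Uhrf1. Igf2r and Dnmt3a are named after their values were seen. Dnmt3a, a DNA methyltransferase, was at 51.8 and 43.8 CPM in newborn and 2.78 to 16.3 CPM in adult sums.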

How the data were processed

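Raw read counts per gene and cell were deposited by the authors as 11 plate tables. The build GRCm38 and FastQC are named in the submitters' processing notes; for the aligner, the counting program, strand and shared reads the methods were not given in the sources used here. Of values from 1 to 10, 61.2% were even, so reads are not independent molecules and intervals cover counting error only. The 2 pairs of plates whose wells had a median correlation of 0.994 were added as 2 runs of 1 plate, leaving 861 wells. The filter on cells asked for 50000 reads, 1000 detected genes and a mitochondrial share of 25% or less, which gave 735 cells of 246349 to 4331293 reads. Wells held single sorted cells, and doublets were not called.

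Counts were summed per age and experiment, and ages compared with edgeR 4.0.16 (TMM, filterByExpr, robust quasi-likelihood F test, Benjamini-Hochberg threshold 0.05, 3 residual degrees of freedom, R 4.3.3). The standard error is the absolute log2 fold change over the square root of F. Alternatives were DESeq2 1.42.0, RLE factors, no filter, thinned cells, a looser cell filter, limma 3.58.1 on mean log2(CPM + 1) per cell, the experiment as a block and each sum left out. Shares rest on cells thinned to 100000 reads (seed 20), with exact Clopper-Pearson 95% intervals. A count of 0 was set to a floor of 3 reads over both sums of an age. The edgeR fit was tested on simulated data. Symbols and positions come from GENCODE M21 and sequences from RefSeq (GRCm38.p6), which gave windows for 8 of the 10 genes.

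The 10 genes, the gene lists and the markers were chosen with earlier results of these data known. Named besides the 10 were list genes that passed a test and some that share a cluster with one of the 10. Also named were the genes most correlated with the mean of the 10 (10), with Igf2 (5) and with Dlk1 (5) over newborn cells. Other list genes with newborn sums above or below all adult sums were named after their values were seen. So were Igf2r and Mirg. A marker gene is not reported here.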

Additional observations from a re-analysis of the deposited data

How the results depend on the processing

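With the experiment as a replicate block, edgeR called 25 genes between young and newborn and 51 between old and newborn, against 130 and 156 without it, and 0 of the 10 imprinted genes in any comparison. The ages of an experiment shared its plates. Over genes, deviations of same-numbered sums from their age mean correlated at -0.00017 (newborn with young), 0.0107 (newborn with old) and 0.0125 (young with old). Which of these fits is the better one was not tested. For young against newborn DESeq2 called 2358 genes, thinned cells 272 and limma 1078, and for old against newborn 2828, 308 and 1432. For old against young DESeq2 called 1047, limma 5 and edgeR without a filter 2, against 0 (810 at an unadjusted p under 0.05). Leaving out a sum gave 0 to 42, 0 to 47 and 0 calls, and 0 of the 10 genes. The young cell left out was chosen after seeing the data, by its reads of these genes. Of the 10, lower calls were 4 by DESeq2, 7 by limma and 1 without that cell for young against newborn. They were 8, 9 and 1, and 1 with thinned cells, for old against newborn, and 5 by DESeq2 for old against young. Those 5 include H19 and Dlk1, whose young reads came nearly all from that cell. The cause was not tested.

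Of 418 fold changes of the 10 genes under 14 alternatives, 375 kept their side of the threshold and direction, 36 passed it and 7 turned sign. Meg3 between young and newborn was 0.26, and -0.23 by limma and -0.65 to 1.12 on leaving out a sum. Ndn was -0.27 for young against newborn (-0.69 to 0.057 on leaving out a sum) and -0.19 for old against young (-0.51 to 0.24). Grb10 between old and young was 0.44 and -0.057 by limma. Dlk1 between old and young had no reads left without the young cell or young replicate 2, so no value could be given. Of 120 shares under other settings, 18 moved by more than 1 SD.

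The 2 sums per age, and the few adult cells with reads of H19, Dlk1, Mest and Plagl1, limit the precision of these fold changes.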
